A study of Mus musculus with 79 samples.

Results

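Of 15171 genes with a mean of at least 1 CPM (counts scaled to the same library total) in both the medial prefrontal cortex (mPFC) and the ventral hippocampus (vHipp), the 200 described here had the highest correlation between the regions over mice. They were chosen by Pearson's r between the regions over the 39 mice that had a library of each, after the mean of the stress and treatment group had been subtracted from log2(CPM + 0.5) in each region. Mitochondrial genes, Y-linked genes, a stretch of chromosome 17, the Srp54 genes, the Hba and Hbb genes and 8 clock genes had been left out before ranking, which left 15081 genes, and 6 of the genes left out would otherwise have ranked among the members. Since r selected the members, it is given as a description and was not tested. It ran from 0.996 (Cwc22) to 0.815 (Trove2), against a median of 0.306 over all 15171 genes. The limit fell on a continuous slope: Zkscan8, Tmem170b, Rsbn1, Dnajb9 and Trove2 were the last members, with r of 0.816 to 0.815, and Acbd5, Pcmtd2, Gm15446, Gsr and Gm14204 followed with 0.815 to 0.814.

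The mice were CD-1, an outbred stock, and all were male and wild type. CSDS mice had gone through chronic social defeat stress, and CTRL mice had not. Each mouse received ketamine or saline, and the mice were tracked in groups in the Social Box, a seminatural arena. RNA came from bulk mPFC and vHipp tissue. The 79 libraries made 8 groups, each of 10 except that the CSDS ketamine group had 9 in the mPFC. The labels did not give social rank or the box in which a mouse lived, and both regions of a mouse carried the same mouse number.

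Outbred animals carry different alleles at many loci, so the RNA level of a gene can follow the genotype of the animal at that gene, and such a difference is then present in every tissue that transcribes the gene. Segments that differ in copy number, retrocopies of expressed genes and clusters of similar genes are well-known places of such variation in mice. The state of the animal at death, the dissection and the handling of the samples can also move a gene in the same direction in several tissues of 1 animal. In bulk tissue, a change in the number of cells of a type and a change in the RNA of each cell cannot be told apart.

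Total counts ranged from 11726129 to 41767119 per library. Markers fitted the labelled regions: Prox1, which marks dentate granule cells, measured 14.8 to 35.3 CPM in the mPFC and 47.5 to 302 CPM in the vHipp, and Zbtb20, a transcription factor of hippocampal neurons, had medians of 100.4 and 433 CPM. The library numbers fell into 5 runs of consecutive numbers, of 8 mice each, with 2 mice of every group in each run. The vHipp and mPFC libraries of a mouse had neighbouring numbers. A run also held consecutive CSDS and consecutive CTRL mouse numbers (1 to 4 and 21 to 24 in the first run), so library number and mouse number cannot be told apart. The mice lived in groups of 4, and whole groups were stressed or not. The labels do not give the box, so runs and boxes cannot be told apart here either. The group comparisons below treated all mice as independent.

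The members fell into 2 kinds by how much of their spread between mice lay between these runs. For 52 members, the runs held more than 50% of the variance between mice, with a median of 74.0%. In the other members, the runs held a median of 10.1%. Over all 15171 genes, the median was 23.0%, and 1337 genes (8.81%) were above 50%, against 26.0% of the members. The limit of 50% lay between Glrb, at 50.4%, and Bc1, at 49.96%.

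The mPFC library of a mouse was also correlated with the next-numbered vHipp library, which came from another mouse. Most of these pairs lie within a run, so that the values describe the same split by runs and are no separate evidence for it. Over 38 such pairs, none within 1 group and 34 within 1 run, the median r was 0.705 for the 52 members and -0.00295 for the others, with 0.145 over all genes. When the run means were also subtracted, the median r between the regions of a mouse fell to 0.576 in the 52 members and was 0.895 in the others. All but 3 of the others kept an r of at least 0.8, and 1 of the 52 did, Glrb, a glycine receptor subunit gene, whose share at the runs of 50.4% was the smallest of the 52. Drosha, Bc1 and Gm36445 were these 3, at 0.777, 0.763 and 0.794. Leaving out the 2 mice farthest from the median mPFC value of each gene left 155 of the 200 members at 0.8 or above, and the lowest r was then 0.573, for Kdm5c.

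**Figure D1:**
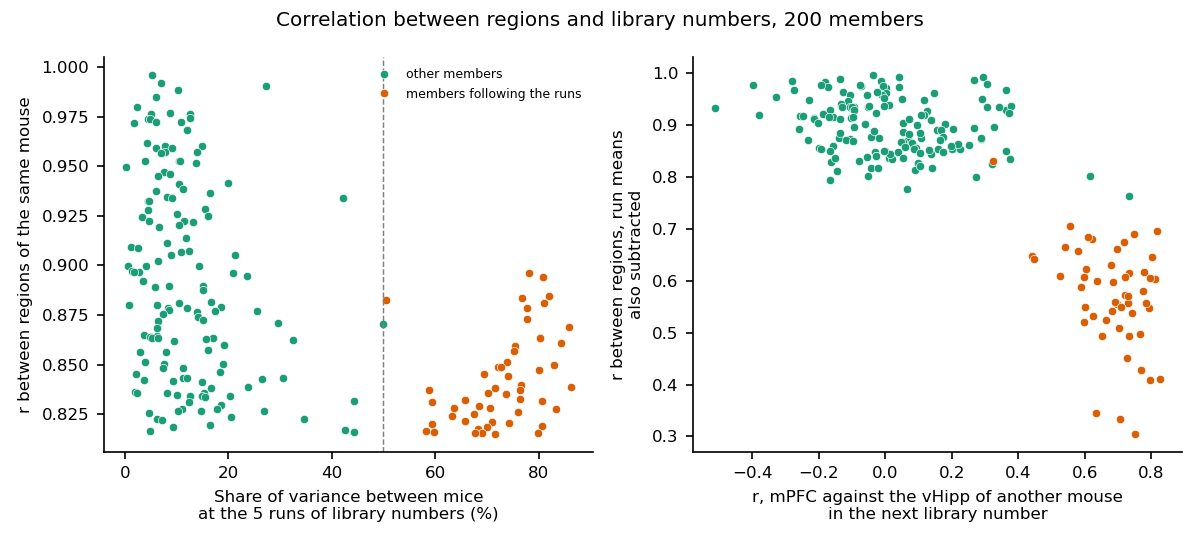
Each point is 1 of the 200 members. Left, r between the regions of the same mouse against the percentage of the variance between mice that lay between the 5 runs of library numbers, with the dashed line at 50%. Right, r with run means also subtracted against r between the mPFC of a mouse and the next-numbered vHipp library of another mouse. The 52 members that follow the runs (orange) lie right of the dashed line in the left panel, and all but 3 of the others (green) stay at or above 0.8 in the right panel.

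Among the members that did not follow the runs, 15 had 2 separate levels: the same mice lay above the widest gap in both regions, and the gap was at least 1 on the log2 scale in each. Cwc22, which encodes a splicing factor needed to load the exon junction complex, was the member with the highest r. It lies on chromosome 2 (77881159 to 77946375, GRCm38), in a segment whose copy number is known to differ between mouse strains. In 21 mice, its level was 18.0 to 35.0 CPM in the mPFC (median 22.2) and 16.8 to 28.4 CPM in the vHipp (median 21.2). In the other 18 mice it was 191 to 753 CPM and 188 to 785 CPM, and the medians of these mice were 20.3-fold higher in the mPFC and 20.0-fold higher in the vHipp. The high mice were found in all groups, with 4 of CTRL saline, 6 of CTRL ketamine, 5 of CSDS saline and 3 of CSDS ketamine. No mouse was high in one region and low in the other.

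Snx10, a sorting nexin of the endosome, was low in 6 mice (numbers 10, 18, 23, 33, 35 and 40). It measured 7.88 to 15.0 CPM (median 11.2) in their mPFC, against 49.2 to 124.9 CPM in the 33 other mice, a 5.95-fold difference of the medians. In the vHipp, the same 6 mice measured 9.85 to 21.0 CPM and the others 44.2 to 144.4 CPM. The 7 eligible genes within 1 Mb of Snx10 did not share this pattern, and none of them had an r of 0.5 or more, or of -0.5 or less, with it over the mice. Amy1, the salivary type of amylase, was low in 16 mice, at 0.992 to 4.63 CPM in the mPFC and 1.59 to 3.78 CPM in the vHipp. It was high in 23, at 9.81 to 20.2 CPM in the mPFC and 8.74 to 19.1 CPM in the vHipp. Of the high mice, 9 were CSDS ketamine mice and 3 were CSDS saline mice, with 6 and 5 of the CTRL saline and CTRL ketamine mice.

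Several of the 15 were noncoding or pseudogene models. 1500004A13Rik, a processed transcript of chromosome 3, was at 0.247 to 1.12 CPM in the mPFC of mice 31 and 34 and at 24.8 to 76.1 CPM in the 37 others. A830036E02Rik, an antisense transcript of chromosome 11, was at 24.5 to 54.4 CPM in the mPFC of 12 mice and at 0.0682 to 1.49 CPM in 27. AC102496.1, a lincRNA, was at or below 0.483 CPM in the mPFC of 5 mice and at 4.00 CPM or above in 34. Rpsa-ps10, a ribosomal protein pseudogene, split the mice almost evenly, with 19 mice at 5.73 to 12.7 CPM and 20 at 47.7 to 146.7 CPM in the mPFC. Tmem181c-ps was high in mice 8, 10, 17, 24 and 34, at 15.7 to 19.4 CPM in the mPFC, and at 1.59 to 3.31 CPM in the 34 others. Gm9008 was at 0.408 CPM or below in the mPFC of 12 mice and at 2.18 to 7.49 CPM in 27. The level of 1 mouse alone set Gm7292 apart, with 15.0 CPM in the mPFC of mouse 35 and 65.6 to 146.5 CPM in the others.

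**Figure D2:**
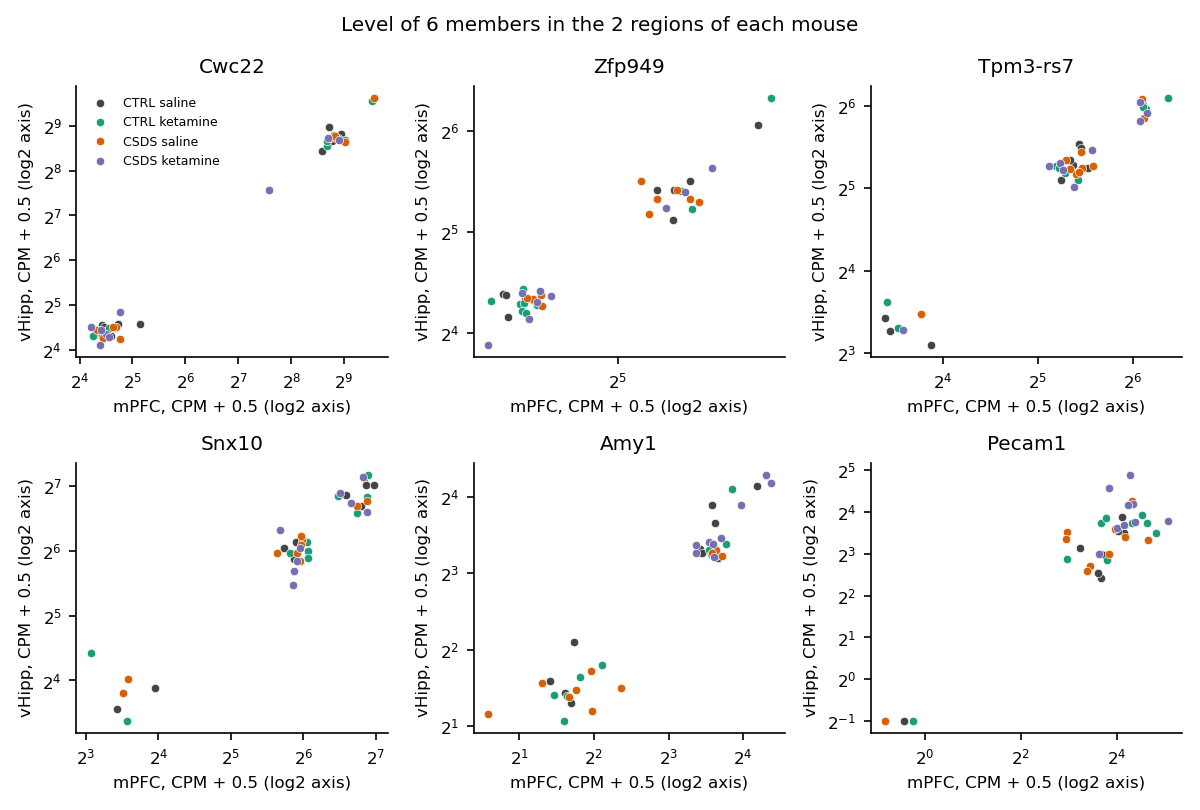
Level in the vHipp against the level in the mPFC, both as CPM + 0.5 on log2 axes, for 6 members. Each point is 1 of 39 mice, coloured by group. Cwc22, Snx10, Amy1 and Pecam1 show separate clouds of mice, and Zfp949 and Tpm3-rs7 show 3 clouds, the highest of Zfp949 with 2 mice.

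In 8 members, the mice formed 3 levels, with both gaps at least 0.2 on the log2 scale, the same mice at each level in both regions and at least 2 mice at each. Invs, which encodes the ciliary protein inversin (chromosome 4, 48279760 to 48431954), had medians of 18.2, 34.8 and 51.8 CPM in the mPFC of 15, 19 and 5 mice. The steps between these levels were 16.6 and 17.0 CPM, and in the vHipp they were 16.1 and 14.6 CPM. Tpm3-rs7, a gene on chromosome 14 that resembles the tropomyosin gene Tpm3, had mPFC medians of 11.0, 40.9 and 68.7 CPM in 7, 23 and 9 mice, with steps of 29.9 and 27.7 CPM. The lincRNA 4632415L05Rik had medians of 8.64, 18.8 and 28.7 CPM in 7, 25 and 7 mice. Gm8399, a processed pseudogene, had medians of 15.3, 38.5 and 64.3 CPM in 18, 17 and 4 mice. Steps in CPM were nearly even in these 4 and in Zfp605, a zinc finger gene with steps of 14.7 and 16.2 CPM in the mPFC.

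The steps were less even in the rest. Zfp949, a zinc finger gene of chromosome 9, had steps of 18.9 and 17.6 CPM in the mPFC but of 22.1 and 31.1 CPM in the vHipp. Gm48780 and Gm1976 had larger second steps in both regions, 1.41 and 2.65 CPM for Gm48780 and 7.09 and 9.38 CPM for Gm1976 in the mPFC. This count of levels was made after the values had been seen.

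Pecam1 (chromosome 11, 106654217 to 106750628) encodes CD31, an adhesion molecule of endothelial cells, and was nearly undetected in 3 mice of different groups. Mouse 13 (CSDS saline), mouse 25 (CTRL ketamine) and mouse 29 (CTRL saline) had 1, 7 and 5 counts in the mPFC, or 0.0632, 0.340 and 0.240 CPM. In the vHipp all 3 had 0 counts, which allows up to 0.142 to 0.164 CPM at their depth, counting error only. The 36 other mice measured 7.26 to 33.0 CPM in the mPFC (median 15.3) and 4.87 to 29.2 CPM in the vHipp (median 11.2). Within the CSDS ketamine mice, none of which lacked Pecam1, its r between regions was 0.183, against 0.923 to 0.967 in the other groups. Other endothelial genes were present in the 3 mice. Cldn5, Flt1, Slco1a4, Ly6c1, Cdh5 and Itm2a lay within the range of the other mice in both regions of all 3: Cldn5 was at 17.8 to 26.5 CPM in their mPFC and at 17.5 to 44.4 CPM in the others. None of the 31 eligible genes within 1 Mb had an r of 0.5 or more, or of -0.5 or less, with Pecam1.

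In other members, 1 mouse or a few mice stood apart. Kdm5c, an X-linked demethylase of histone H3, measured 124.6 CPM in the mPFC and 130.2 CPM in the vHipp of mouse 30, a CTRL saline mouse, and 57.2 to 73.6 CPM and 52.8 to 77.2 CPM in the others. Within the other groups its r was 0.330 to 0.731, against 0.984 in the CTRL saline mice. Its level in mouse 30 was 1.80-fold the median of the others in the mPFC and 1.85-fold in the vHipp. The neighbouring genes Iqsec2, Smc1a and Kantr were within the range of the other mice in both regions, and Tspyl2 was so in the vHipp but not in the mPFC, with 96.9 CPM in mouse 30 and 101.6 to 132.8 CPM in the others. Of 19 eligible genes within 1 Mb of Kdm5c, 2 had an r of 0.5 or more with it over the mice and 1 of -0.5 or less. Unc13c, a vesicle priming factor of synapses, was at 3.79 CPM in the mPFC of mouse 25 and at 12.8 to 40.9 CPM in the others. Akr1e1, an aldo-keto reductase, had an r of 0.959 and ranged from 4.32 to 24.0 CPM in the mPFC around a median of 19.5 CPM. Ccl28, a chemokine of mucosal tissues, ranged from 0.0986 to 8.45 CPM in the mPFC and from 0.0628 to 10.6 CPM in the vHipp. The widest spreads between mice, as an SD on the log2 scale of the mean of both regions, were 2.41 for AC165951.1, 2.33 for A830036E02Rik, 2.13 for Cwc22 and 1.38 for Rpsa-ps10, against a median of 0.354 over the members and 0.145 over all genes. Gm16092 (1.03) and the members with 2 levels Gm9008 (1.30), 1500004A13Rik (1.24), Pecam1 (1.22), AC102496.1 (1.11) and Snx10 (1.04) completed the 10 widest.

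Some members lay side by side. Within 500 kb, 48 members formed 22 neighbourhoods, and the absolute r between neighbours over the mice had a median of 0.687 in 31 pairs, against 0.169 in all 19900 pairs of members. Of the 31 pairs, 15 had an r of at least 0.5 and 3 of -0.5 or less. Glo1, which encodes the glyoxalase that detoxifies methylglyoxal, lies on chromosome 17 (30584936 to 30626871) in a segment known to be duplicated in some mouse stocks. It was high in the 11 mice in which AC165951.1 was high, and r between both genes was 0.972. AC165951.1, annotated as an antisense transcript, lies 293467 bases away on the same strand as Glo1. AC165951.1 was at 14.8 to 18.7 CPM in the mPFC of those mice and at 0 to 1.87 CPM in the 28 others. Glo1 itself was at 113.8 to 148.5 CPM in the mPFC of the 11 mice and at 53.1 to 77.3 CPM in the others, without overlap. Dnah8, a dynein gene whose model starts 39.4 kb from that of Glo1, had an r of 0.694 with Glo1 over the mice, but of 0.268 between regions, and was not a member.

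The largest neighbourhoods were found on chromosomes 17 and 9. C4a, a complement gene, Stk19 and Gm10501 had an r of 0.839 to 0.938 with each other, and Ring1, a polycomb gene within 1 Mb of C4a, had an r of 0.927 with Stk19. Of 74 eligible genes within 1 Mb of C4a, 12 had an r of 0.5 or more with it and none of -0.5 or less. The neighbourhood of C4a ends shortly before the stretch of chromosome 17 that had been left out before ranking. In that stretch, 2 genes would otherwise have been members, so the neighbourhood may be cut short by the rule. In the neighbourhood of Tmem181a, Tmem181b-ps, Tmem181c-ps and Rsph3b the levels were less alike: r was 0.55 between Tmem181a and Tmem181b-ps and -0.41 between Tmem181a and Tmem181c-ps. Syncrip, Zfp949 and 9430037G07Rik lay within 1 neighbourhood of chromosome 9. Zfp949 and 9430037G07Rik went in opposite directions (r = -0.903), and Syncrip, which followed the runs, went with neither (-0.02 and 0.18).

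Opposite levels were also measured for Ifit2 and Ifit1bl1, neighbours in the cluster of interferon-induced Ifit genes on chromosome 19, with an r of -0.783. Ifit1bl1 was at 1.07 to 3.07 CPM in the mPFC of 22 mice and at 0 to 0.129 CPM in 17. Ifit2 ranged from 8.36 to 39.4 CPM in the mPFC, and Lipa, a lysosomal lipase gene 58.4 kb away, had an r of 0.874 with it. A list of interferon-responsive genes that does not hold Ifit2 or Ifit1bl1 had a median r between regions of 0.0698 over 15 eligible genes, and none of these 15 was a member. A link over a longer distance was that of Cwc22 with Nckap1, a subunit of the WAVE actin-regulating complex 2.62 Mb away (r = 0.911), whereas none of the 6 eligible genes within 1 Mb of Cwc22 had an absolute r of 0.5 or more with it.

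**Figure D3:**
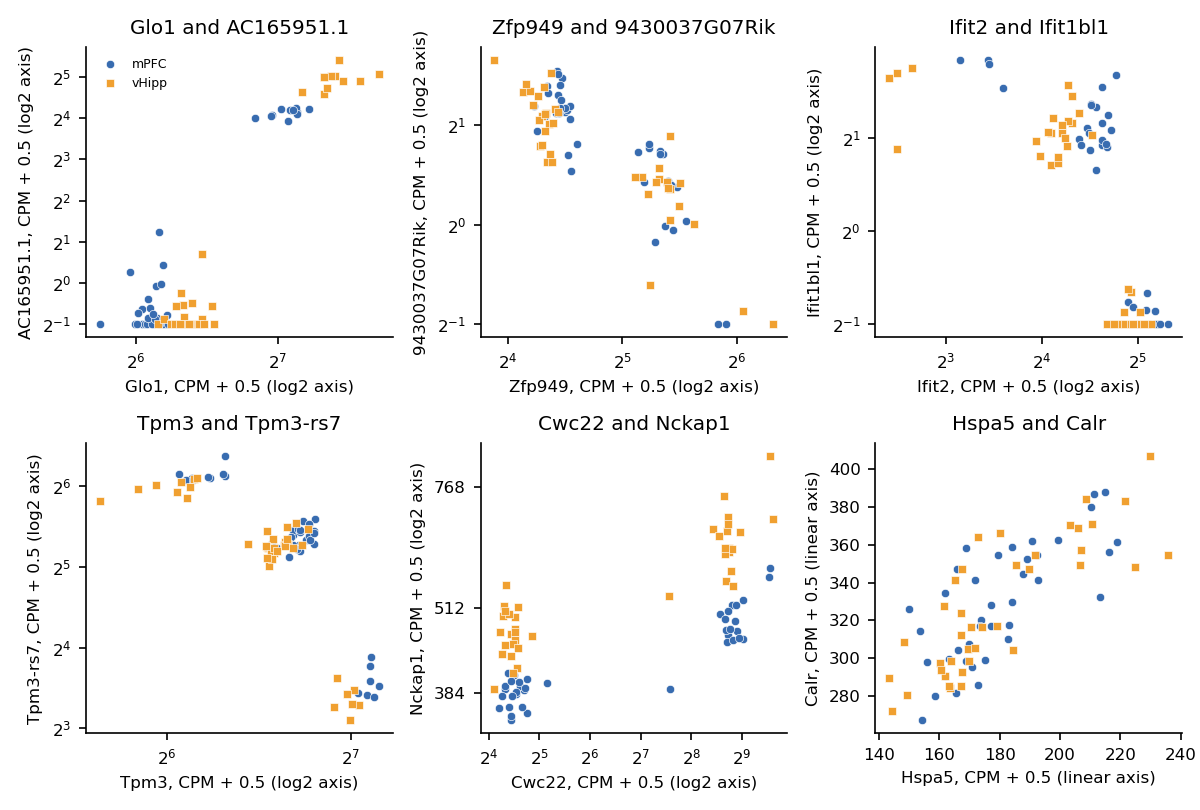
Levels of 6 pairs of members, as CPM + 0.5, in the mPFC (circles) and the vHipp (squares) of 39 mice, on log2 axes except for Hspa5 and Calr, which are on linear axes. Glo1 and AC165951.1 (r = 0.972), Cwc22 and Nckap1 (0.911) and Hspa5 and Calr (0.799) went together over the mice, and Zfp949 and 9430037G07Rik (-0.903), Ifit2 and Ifit1bl1 (-0.783) and Tpm3 and Tpm3-rs7 (-0.853) went in opposite directions.

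Some neighbouring models overlap, such as Amy1 and Rnpc3 (r = 0.799) and Matr3 and Gm36989 (0.938). Iqcg and Rpl35a lie close without overlap. Their gene models start back to back on opposite strands of chromosome 16, at positions 235 bases from each other, and their r was 0.68. The window around the start of Rpl35a (RefSeq, GRCm38.p6, chr16:33056203-33056502, plus strand) is shown because it spans the whole gap, whose bases are in capitals.
Rpl35a: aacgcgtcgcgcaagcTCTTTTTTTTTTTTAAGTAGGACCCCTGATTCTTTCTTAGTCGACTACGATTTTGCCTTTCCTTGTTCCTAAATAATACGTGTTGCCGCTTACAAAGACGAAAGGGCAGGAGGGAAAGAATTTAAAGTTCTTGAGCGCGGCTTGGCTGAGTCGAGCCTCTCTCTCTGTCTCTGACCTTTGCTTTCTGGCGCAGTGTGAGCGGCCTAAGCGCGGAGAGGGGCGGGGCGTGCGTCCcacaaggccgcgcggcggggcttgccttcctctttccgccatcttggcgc

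Many members had sequence in common with other genes. Of the 50-base words in the transcripts of the other members with a transcript in the annotation, at least 10% occurred in the same orientation in another gene's transcripts, overlapping genes included, in 56 members (38.1%), against 12.7% of all eligible genes. At least 50% did so in 18.4% of these, against 4.33% of all eligible genes. For the members that follow the runs, the shares were 15.7% and 1.96%. Reads of such genes can be assigned to either copy, and how the authors treated them was not given in the sources used here, so their levels are uncertain.

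Some of these genes were members together with the gene that they resemble. Tpm3-rs7 shared 69.5% of its words with Tpm3, and both had an r of -0.853 over the mice: mice with more Tpm3-rs7 had less Tpm3, which ranged from 66.4 to 141.5 CPM in the mPFC. Gm14719 shared 83.5% with Ppdpf (r = -0.787) and Gm9008 shared 60.1% with Rnf26 (-0.848). Gm13443 shared 78.5% with Glo1, and both went in the same direction (0.933). Tuba1c and Gm14150 also did (0.956), and of all genes each had most words in common with Tuba1b (44.9% and 62.5%), which was not a member. Pseudogenes of any type were 11.5% of the other members and 6.499% of all eligible genes, and genes that were neither protein-coding nor pseudogenes were 19.6% and 6.62%. Protein-coding genes made up 68.9% of the other members and 86.9% of all eligible genes.

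Hspa5, the chaperone BiP of the endoplasmic reticulum (ER), and Calr, the ER lectin chaperone calreticulin, varied gradually and not in levels. Hspa5 ranged from 149.6 to 218 CPM in the mPFC (median 175) and from 142.9 to 235 CPM in the vHipp (median 170), with an r between regions of 0.890. Calr ranged from 267 to 387 CPM and from 272 to 406 CPM, with an r of 0.877. The r between both genes over the mice was 0.799, and 15.1% and 25.5% of their variance lay between the runs. ER chaperone genes are induced together by the unfolded protein response through a motif in their promoters, the ER stress response element. A list of 14 such genes, chosen after values had been seen, had a median r between regions of 0.677. Pdia6 (0.802), Pdia3 (0.762) and Hsp90b1 (0.725) lay below the limit for members, and Dnajb9, the third member of the list, followed the runs instead and had an r of 0.0534 with Hspa5. Manf, Pdia3, Pdia4, Pdia6 and Hsp90b1 had an r of 0.724 to 0.824 with Hspa5, and Creld2 and Herpud1 of -0.128 and -0.130.

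The promoter windows of Hspa5 (RefSeq, GRCm38.p6, chr2:34771840-34772139, plus strand) and Calr (chr8:84846882-84847181, minus strand) are shown because each holds an exact match to this element, CCAAT followed after 9 bases by CCACG, searched on both strands. Capitals mark both parts of the match, which is read on the opposite strand in Calr.
Hspa5: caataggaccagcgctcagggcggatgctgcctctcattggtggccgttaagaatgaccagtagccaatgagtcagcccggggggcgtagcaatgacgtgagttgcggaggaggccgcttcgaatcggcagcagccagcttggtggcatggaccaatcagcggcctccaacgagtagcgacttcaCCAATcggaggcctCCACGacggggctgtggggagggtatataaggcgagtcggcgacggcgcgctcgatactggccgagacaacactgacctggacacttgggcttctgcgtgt
Calr: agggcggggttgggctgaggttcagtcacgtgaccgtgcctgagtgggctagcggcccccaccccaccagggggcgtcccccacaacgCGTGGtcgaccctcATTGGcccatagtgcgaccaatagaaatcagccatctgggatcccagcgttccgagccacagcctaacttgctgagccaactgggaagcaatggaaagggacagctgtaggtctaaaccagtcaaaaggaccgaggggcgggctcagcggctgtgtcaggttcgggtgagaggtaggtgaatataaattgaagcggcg
The motif occurred in 39 of 32851 promoter windows of 300 bases (0.119%), in 2 of the members whose symbols had a window and in 5 of the 12 ER chaperone genes that had one. The 2 members were Hspa5 and Calr, and the ER chaperone genes also included Hsp90b1, Pdia6 and Creld2. A gene counted if any of its windows held the motif. The share of windows is therefore not matched to these counts of genes. Many members had no window and were not searched. Creld2 had it but an r of -0.128 with Hspa5, whereas Pdia3 (0.824) and Pdia4 (0.768) had none. The list was made of genes of this response, so its share is no independent finding. A match is a match of letters and does not show that the site was bound.

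The 52 members that follow the runs moved together, except for Gm20721. In 1326 pairs among them, the median absolute r over the mice was 0.860, and 95.3% of the pairs reached 0.5, compared with 0.155 and 2.33% among the others. The 52 were picked because most of their variance lay between the same runs, so this contrast is largely built in. Apart from Gm20721, all of them went in 1 direction, and 49 of the 52 were protein-coding. Gm20721 was no mirror image of the rest. Its mean r to the set was only 0.169 in size, against at least 0.618 for each of the others. Its mean was highest in the first run (0.535) and lowest in run 5 (-0.345), on the log2 scale, whereas all 51 others were lowest in run 1 or 5. The 10 with the highest mean r to the rest were Fmr1, Syncrip, Kbtbd7, Cpsf6, Ythdf3, Klhl28, Matr3, Tmed7, Fubp1 and Rsbn1. Fmr1 encodes the fragile X protein FMRP, which binds mRNAs of synaptic proteins, Syncrip, Matr3 and Fubp1 encode RNA- or DNA-binding proteins, Cpsf6 a cleavage and polyadenylation factor and Ythdf3 a reader of m6A in mRNA. Others were the phosphatase subunit gene Ppp1cb, the neuronal membrane protein gene Gpm6a, the glycine receptor subunit Glrb and the RNA-binding genes Tia1, Ddx6, Cpeb4 and Zranb2.

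The median deviation of the 52 members from the group mean, on the log2 scale and with the sign of Gm20721 turned, was -0.386 to -0.119 in the 8 mice of the first run and 0.183 to 0.361 in the 7 mice of the second, which did not overlap. In run 5 it was -0.301 to -0.0978. Runs 3 and 4 lay between, with medians of 0.150 and -0.0190. Matr3 measured 112.9 to 148.8 CPM in the mPFC of the first run and 223 to 254 CPM in that of the second, with medians of 136.2 and 237 CPM. Its vHipp levels were 109.6 to 165.0 CPM and 204 to 240 CPM in the same runs. Fmr1 had mPFC medians of 54.6 and 78.8 CPM and vHipp medians of 53.7 and 72.0 CPM in the first and second run. Over the 52 members, the distance between the highest and the lowest run had a median of 0.505 on the log2 scale and ran from 0.229 (Ddx6) to 1.56 (Gm36989, a model that overlaps Matr3). The highest mean lay in the second run for 46 of the 51 members that rose together. These levels describe the split by runs that defined the 52 members and are no separate evidence for it.

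**Figure D4:**
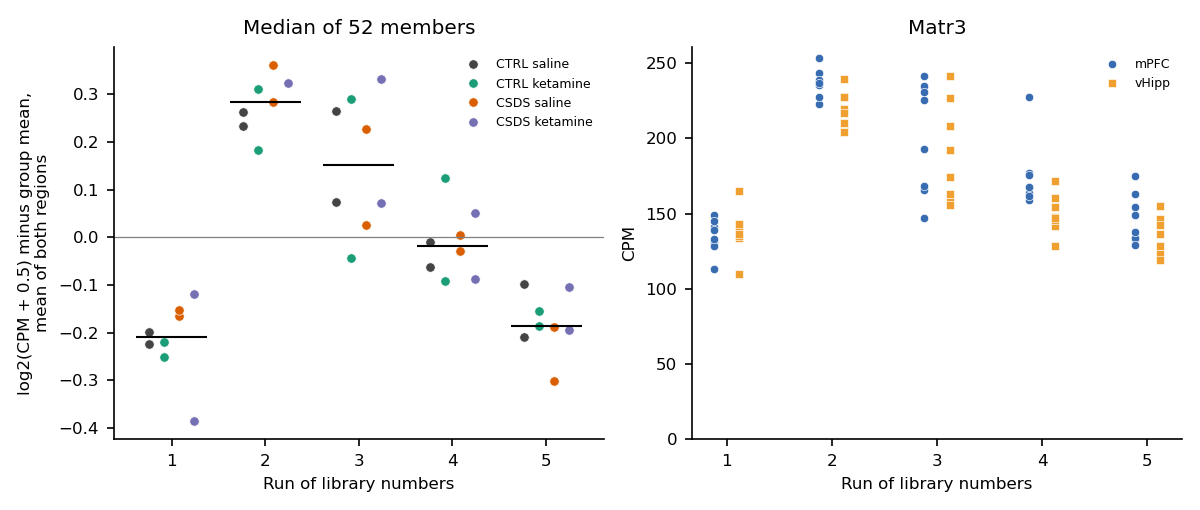
Left, median deviation of the 52 members that follow the runs from the group mean of log2(CPM + 0.5), averaged over both regions, for each of 39 mice against the run of library numbers, coloured by group, with lines at the run medians. Right, Matr3 in CPM in the mPFC (circles) and the vHipp (squares) of the same mice. The second run has the highest median and runs 1 and 5 have the lowest.

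What these genes had in common beyond the runs was low GC content. The longest annotated transcript of the 52 members had a median GC content of 39.8%, with quartiles of 38.1% and 41.0%. In the others, the median was 48.6%, and over all eligible genes it was 49.6% with quartiles of 44.8% and 54.4%. The 1285 genes that follow the runs and are not members had a median of 42.9%. The median length of the longest transcript was 5102 bases in the 52 members, 2770 in the others and 3296 over all eligible genes. Whether GC content or length had a part in the runs was not tested.

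Library measures and cell type markers were compared with the members over the mice. The log2 total count had an absolute r above 0.5 with none of the 200 members, and the summed mitochondrial level with 3 of the 52 and none of the others. The marker lists of oligodendrocytes, astrocytes, choroid plexus, striatal neurons, inhibitory neurons and hippocampal neurons reached 0.5 with no member, those of endothelial cells and microglia with 1 each, and those of cortical neurons and meningeal fibroblasts with 2 each. The heat shock list reached it with 11 of the others, the copy number list with 5, the ER chaperone list with 4 and the glucocorticoid-responsive list with 3. The clock, hemoglobin, erythroid, interferon and immediate early measures reached it with 2 or fewer. Some lists hold members themselves, and the share over all eligible genes was not counted, so whether these counts are unusual is not known. The heat shock member Hspe1 encodes the small mitochondrial chaperonin, with an r between regions of 0.826 against a median of 0.530 over the 10 heat shock genes. The oligodendrocyte genes had a median r between regions of -0.164 (8 genes), the glucocorticoid-responsive genes 0.294 (16 genes) and the immediate early genes 0.323 (14 genes), and none of these genes was a member. Pecam1 and Glo1 were the members of the endothelial list and the list of genes with known copy number variation.

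Whether stress or ketamine moved the members was tested with edgeR's quasi-likelihood test across all genes of a region, and all 200 members were tested. No member passed an adjusted p of 0.05 in any of the 6 group comparisons. No other gene did in these fits either, so that 0% of genes were called in each. For stress, averaged over treatments, 4 members (2.00%) in the mPFC had an unadjusted p under 0.05, against 3.52% of the 28993 genes tested, and 10 (5.00%) in the vHipp, against 9.71% of 28991. For ketamine, averaged over the stress groups, the counts were 7 (3.5%) in the mPFC, against 3.07% of genes, and 12 (6.00%) in the vHipp, against 3.39%. For the interaction of both, they were 11 (5.50%) in the mPFC, against 5.31%, and 12 (6.00%) in the vHipp, against 2.84%. DESeq2 and limma-voom called no member either. In the order just given, 5, 10, 6, 13, 11 and 11 members had an unadjusted p under 0.05 by DESeq2. These were 2.5%, 5%, 3%, 6.5%, 5.5% and 5.5% of the members, against 2.31%, 8.84%, 2.02%, 2.25%, 4.29% and 1.80% of genes. By limma-voom the counts were 5, 11, 10, 13, 13 and 8 members. As shares of the members, they were 2.5%, 5.5%, 5%, 6.5%, 6.5% and 4%, against 3.02%, 8.38%, 2.79%, 2.64%, 5.09% and 2.66% of genes. With the run of library numbers as a covariate, again no member passed, and the counts were 6, 24, 9, 14, 19 and 11 members. Their shares were 3%, 12%, 4.5%, 7%, 9.5% and 5.5% of the members, against 4.20%, 11.0%, 3.37%, 3.38%, 7.48% and 2.92% of genes. The 24 members for stress in the vHipp were 12.0% of the members, near the share of all genes. Of these, 14 were among the 52 that follow the runs, most of whose levels moved together, against 1 of the 52 without the covariate. All comparisons within a region share their libraries.

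Levels were also compared between the regions. The mPFC minus vHipp difference, averaged over the 4 groups, was first fitted with both libraries of a mouse treated as independent. It passed an adjusted p of 0.05 by edgeR in 68 members (34.0%), 30 of them higher in the mPFC, against 48.9% of the 31534 genes tested. With the mouse number as a block, in the 39 mice with both regions, 68.5% of the members passed, 63 of them higher in the mPFC, against 48.9% of genes. The block removes the differences between mice that both regions share, which is the quantity that selected the members. Without the block, these differences count as spread within groups. The lower share of members in the unpaired fit therefore follows partly from how they were chosen. The median absolute difference was 0.139 on the log2 scale in the members and 0.259 over all genes tested. The genes tested included genes below the mean CPM required of members, so these contrasts partly reflect that requirement. With a stricter filter of low counts in edgeR and no block, 12481 of 18973 genes and 35.5% of the members passed. The median absolute difference was then 0.141 in the members and 0.193 over all genes tested. The block was not fitted with this filter, so its 68.5% has no matched share of genes.

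Among the members that passed without the block, 4930447C04Rik, Hyi, Nmrk1, E030013I19Rik and Bc1 had the largest differences. AC165951.1 had a difference of -0.85 but did not pass in that fit (edgeR adjusted p = 0.271). 4930447C04Rik was higher in the mPFC, by 1.91 on the log2 scale (edgeR adjusted p = 9.53e-19), as was Hyi, a hydroxypyruvate isomerase gene, by 1.34 (adjusted p = 5.65e-15 by edgeR). Nmrk1, a kinase of the NAD salvage pathway, was lower in the mPFC, with a log2 difference of -1.03 and an edgeR adjusted p of 4.34e-15. E030013I19Rik was lower (-0.78) and Bc1, a small RNA of neuronal dendrites, higher (0.77), with edgeR adjusted p of 0.00152 and 0.00191. 4930447C04Rik measured 5.58 to 41.0 CPM in the mPFC (median 19.0) and 1.02 to 12.5 CPM in the vHipp (median 4.85), and was higher in the mPFC in 39 of 39 mice with a mean difference within mice of 1.93 ± 0.41 (SD, log2). Nmrk1 was lower in the mPFC in 39 of 39 mice, at 1.13 to 5.78 CPM (median 4.06) against 2.87 to 10.9 CPM (median 7.91). Bc1 ranged widely, from 51.3 to 573 CPM in the mPFC and from 23.6 to 361 CPM in the vHipp, so that the regions overlapped, but 37 of 39 mice had more of it in the mPFC. By contrast, Calr differed within mice by 0.01 ± 0.08 and Hspa5 by 0.00 ± 0.09 (mean ± SD over 39 mice, mPFC minus vHipp, log2).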

How the data were processed

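RNA of mPFC and vHipp tissue was made into stranded mRNA libraries, and the authors deposited whole-number counts per gene for 79 libraries in 1 table, not normalized. The submitters' processing notes name bcl2fastq 2.20.0.422, CASAVA and GRCm38. Which aligner and counter were used is not given in the sources used here. Depth limits the lowest genes, and the limits given for counts of 0 cover counting error only.

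CPM used library totals, with a pseudocount of 0.5 on the log2 scale. The members and the lists were chosen with earlier results of these data known. Members named in the text are those with the highest r, the widest spread, 2 or 3 levels, the neighbours, or the largest region differences, and the ER chaperone list, the 3 levels and single mice were added after values had been seen. Group and region comparisons were fitted on all genes with edgeR 4.0.16 (TMM, quasi-likelihood, Benjamini-Hochberg), with no covariate. DESeq2 1.42.0, limma 3.58.1 with voom, other filters and normalizations, and the run of library numbers as a covariate (chosen after seeing the data) were alternatives. Mouse numbers pair the regions, since both libraries of a number came from the same mouse. Scripts were tested on simulated data. Sequences came from RefSeq (GRCm38.p6). Some genes are not reported here.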

Additional observations from a re-analysis of the deposited data

Results flagged for a closer look

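In 30 members, the CPM of each mouse, as the mean of both regions on the log2 scale, was compared within its group of stress and treatment, and in 22 cases a group had 1 mouse whose gap to the nearest other mouse took up an unusually large part of the range of the group. Chance flags about 1 in 20 groups, and these members were chosen for differences between mice, so that flags are no independent finding. For 1500004A13Rik, mouse 14 was the highest of the CSDS ketamine mice, with a gap of 0.616 of the range. For AC102496.1, mouse 32 was the lowest of the CTRL ketamine mice, with a gap of 0.861 of the range, mouse 19 was the lowest of the CSDS saline mice, with a gap of 0.721 of the range and mouse 11 was the lowest of the CSDS ketamine mice, with a gap of 0.688 of the range. For Tpm3-rs7, mouse 8 was the lowest of the CSDS saline mice, with a gap of 0.672 of the range and mouse 14 was the lowest of the CSDS ketamine mice, with a gap of 0.671 of the range. For 4632415L05Rik, mouse 27 was the lowest of the CTRL saline mice, with a gap of 0.536 of the range and mouse 6 was the lowest of the CSDS ketamine mice, with a gap of 0.543 of the range. For Invs, mouse 35 was the lowest of the CTRL saline mice, with a gap of 0.737 of the range. For Ifit2, mouse 33 was the lowest of the CTRL saline mice, with a gap of 0.665 of the range and mouse 25 was the lowest of the CTRL ketamine mice, with a gap of 0.59 of the range. For Akr1e1, mouse 35 was the lowest of the CTRL saline mice, with a gap of 0.806 of the range and mouse 32 was the lowest of the CTRL ketamine mice, with a gap of 0.68 of the range. For Tmem181c-ps, mouse 24 was the highest of the CTRL saline mice, with a gap of 0.793 of the range, mouse 34 was the highest of the CTRL ketamine mice, with a gap of 0.813 of the range and mouse 17 was the highest of the CSDS ketamine mice, with a gap of 0.898 of the range. For Gm7292, mouse 35 was the lowest of the CTRL saline mice, with a gap of 0.821 of the range. For Pecam1, mouse 29 was the lowest of the CTRL saline mice, with a gap of 0.799 of the range, mouse 25 was the lowest of the CTRL ketamine mice, with a gap of 0.73 of the range and mouse 13 was the lowest of the CSDS saline mice, with a gap of 0.749 of the range. For Kdm5c, mouse 30 was the highest of the CTRL saline mice, with a gap of 0.701 of the range and mouse 23 was the lowest of the CTRL ketamine mice, with a gap of 0.716 of the range.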

How the results depend on the processing

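The ranking of members was repeated under 12 other settings. Of the 200 members, 199 stayed with a pseudocount of 1, 196 with 0.1, 183 without subtracting group means, 173 with TMM scaling, 170 and 163 with a mean CPM of at least 0.2 and of at least 5, 158 to 168 with 1 group left out, and 76% of them with Spearman's rho, which compares the order of mice. With run means also subtracted, an alternative chosen after seeing the data, 1 of the 52 members that follow the runs stayed and all but 2 of the others, and 63 members, none of them among the 52, were in all 13 rankings. For stress in the vHipp, DESeq2 called 14 genes at an adjusted p of 0.05, none of them a member, where edgeR called 0. With the mouse as a block, that is with both regions of a mouse paired, 68.5% of the members differed between regions against 34.0% without pairing, and the other alternatives gave 33.0% to 41.0%. For the 5 genes named in that comparison, all 35 alternative values kept their direction and their side of the threshold. Depth limits what can be said of the levels near 0 CPM.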
